A study of Mus musculus with 8 samples.

Results

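The genes described here encode enzymes that build and finish sugar chains: glycosyltransferases, which move a sugar onto a growing chain, and carbohydrate sulfotransferases, which add sulfate to it. They were chosen by symbol (the B3gal, B3gnt, B4gal, St3gal, St6gal, St8sia, Galnt, Fut, Mgat and Chst families), with a single platform symbol per probe set. Each gene was read from the probe set with its highest mean over all 8 arrays. This gave 97 members among 18193 genes, covered by 187 of 45037 probe sets that are not controls. The symbol and the mean level chose the members and their probe sets. The gene B4galnt2 was known to be far higher in one genotype when the list was drawn up, so its difference is given as a description with no test.

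Messenger RNA was measured on Affymetrix MOE430 v2 arrays, 1 array per mouse, in oocytes taken before meiosis resumes. The mice were 4 Dicer knockout and 4 wild-type females, all of a 129/C57BL6 background and all primed with eCG, a hormone that makes follicles grow. Each array held the RNA of 20 oocytes pooled from 1 mouse, stripped of cumulus cells and amplified in 2 rounds. Dicer is an RNase III enzyme that processes microRNA precursors and long double-stranded RNA into short regulatory RNAs. The age of the mice, the Dicer allele and any Cre driver are not given in the sources used here.

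Sugar chains are made in the endoplasmic reticulum and Golgi by enzymes that act in turn, each using a nucleotide-activated sugar or, for sulfate, the donor PAPS. N-glycans are attached to asparagine and then trimmed and branched, and mucin-type O-glycans start with an N-acetylgalactosamine (GalNAc) on serine or threonine. Galactose, N-acetylglucosamine (GlcNAc), sialic acid, fucose and sulfate are then added. In the oocyte these chains cover the zona pellucida glycoproteins, which form the coat around the egg.

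The deposited values are log2 signals, so a difference of 1 is a 2-fold change, and differences are knockout minus wild-type. A gene passed the test when its limma p, adjusted by Benjamini-Hochberg over all 45037 probe sets, was under 0.05. Every adjusted p below is of that kind, except where a gene's probe sets were averaged, which adjusts over the 18193 genes. Every ± is an SD over 4 arrays unless given as an SE, and rose, fell, higher and lower calls refer to the test over all probe sets. Probe sets differ in how brightly they report a transcript, so levels of different genes are not compared as amounts of RNA.

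The check of the labels did not show a loss of the targeted transcript. Dicer1 stood at 14.32 ± 0.044 on the arrays labelled Dicer knockout and 13.13 ± 0.125 on those labelled wild-type in its brighter probe set, a difference of 1.19 (adjusted p = 2.12e-05). In the other it stood at 12.31 ± 0.131 on knockout-labelled and 11.62 ± 0.166 on wild-type-labelled arrays, a difference of 0.69 (adjusted p = 0.0017). Where these probe sets lie relative to the deleted part is not given in the sources used here, so they do not check the labels, and every direction below rests on the labels alone: knockout and wild type mean the arrays so labelled. Of 10 oocyte markers, among them Gdf9, Zp3 and Bmp15, all were measured with mean levels of 8.73 to 14.6. On the knockout-labelled arrays 3 (Figla, Mos and Ooep) were lower, against 12.8% of all genes, and 7 were not called. Array medians lay between 6.35 and 6.43, and correlations over all probe sets were 0.9915 to 0.9947 within groups and 0.9797 to 0.9865 between them.

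Wild-type array 1 stood apart from the other wild-type arrays among genes that rose. Over all genes called and at least 2-fold higher in the knockout, it was the highest wild-type array for 71.6%, against 7.44% to 11.2% for each of the other 3. Among the 8 members that rose, by any fold, it was the highest wild-type array for 5, namely B4galnt2, Mgat4d, Mgat4c, B4galt3 and Mgat4a. Of the 4 members that rose at least 2-fold, it was the highest for B4galnt2, Mgat4d and Mgat4c and not for Galnt13. Without this array 8 members rose and 14 fell, the same numbers as with it. Of all genes, 7.68% rose and 10.6% fell without it, against 8.18% and 12.8% with it. Without it B3gntl1 (difference 0.47, adjusted p = 0.0765) and Chst8 (-0.24, adjusted p = 0.0737) were no longer called, and Galnt12 (1.18, adjusted p = 0.00679) and Chst14 (-0.42, adjusted p = 0.0252) were.

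Most of these genes did not pass the test, and the share that did was near that of all genes. Of the 96 members other than B4galnt2, 21 (21.9%) passed, against 21.0% of all genes. Those that rose numbered 7 (7.29%, against 8.18% of all genes), and those that fell numbered 14. With B4galnt2 counted as above the threshold, 22 of 97 members passed (22.7%), 8 higher (8.25%) and 14 lower (14.4%, against 12.8% of all genes). Counts below include B4galnt2, and those of each role stand beside the same shares of all genes. The median difference was 0.0055 over members and 0.0027 over all genes, and the median size of a difference was 0.167 and 0.157. The arrays of the 2 groups did not overlap for 8 members that were higher in the knockout (8.25%, against 10.7% of all genes) and 16 that were lower (16.5%, against 15.5%). The members with the largest differences were B4galnt2, Galnt13, Mgat4d and Mgat4c, all higher, and Chst11, lower. Calls were more frequent among brighter genes, for members as for all genes. Of the 60 members at or above the level of the median probe set (6.396), 20 were called (33.3%, against 27.8% of all genes there), and of the 37 below it, 2 were (5.41%, against 6.85%).

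**Figure D1:**
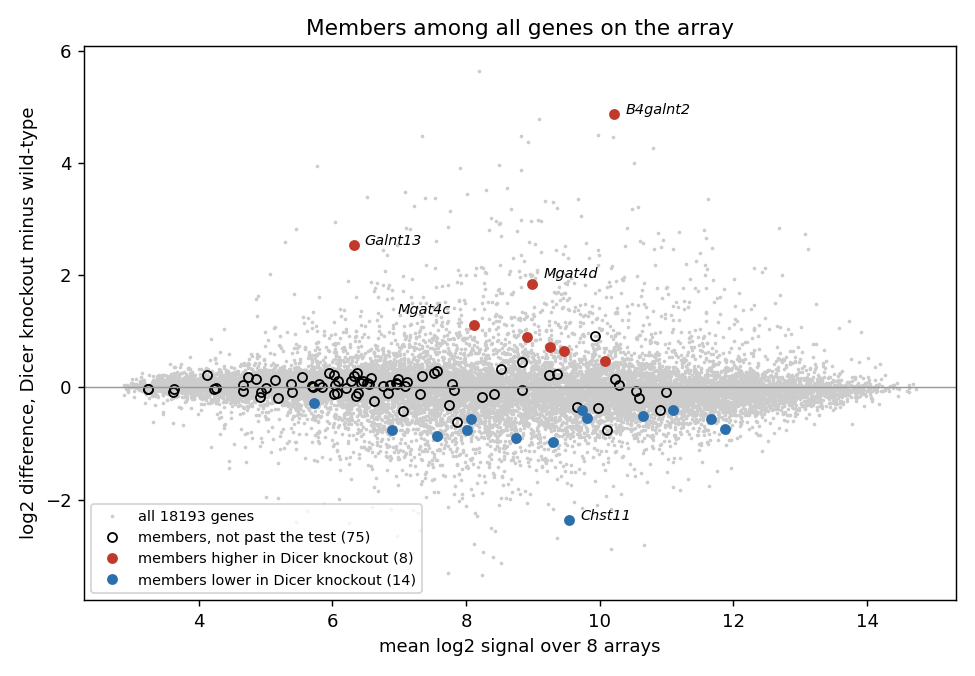
Log2 difference (Dicer knockout minus wild-type, vertical) against the mean log2 signal over 8 arrays (horizontal) for all 18193 genes (grey) and the 97 members (circles, filled where past the test). The members spread through the cloud of all genes, with B4galnt2 at 4.87 near its upper edge and Chst11 at -2.37 near its lower edge.

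Beyond the oocyte, some markers of other cell types moved with genotype, most of these lower in the knockout, and the rest were not called. Of 15 cumulus and granulosa cell markers, 13 were measured, 6 fell (Cyp11a1, Fst, Inha, Hsd17b1, Fshr and Nr5a2) and 0 rose by limma (0 higher and 6 lower at an unadjusted p under 0.05). The other 7 (Amh, Foxl2, Has2, Kitl, Ptgs2, Star and Tnfaip6) were not called, and of all genes 12.8% were lower. Among these 7, Tnfaip6 (mean level 3.36), Has2 (5.46) and Ptgs2 (5.89) lay below the level of the median probe set (6.396). The summed linear signal of the 13 measured markers was 3453 to 4509 on the knockout-labelled arrays and 4957 to 7096 on the wild-type-labelled arrays. Cyp11a1, which starts steroid synthesis, averaged 7.40 ± 0.751 in the knockout and 8.97 ± 0.305 in wild type (difference -1.57, adjusted p = 0.0101). Of 10 markers of vessel, stroma and blood cells, Cd68 rose, Tek and Kdr fell and 7 were not called, beside 21.0% of all genes called. Their summed signal was 1171 to 1274 in the knockout and 1275 to 1476 in wild type. The part these transcripts had in the members' differences was not tested, and in pooled oocytes fewer attached cells and less RNA per cell cannot be told apart. No marker is at 0, since these values have no true zero. The gap between the 3′ and 5′ control probe sets, a sign of RNA length, averaged 2.14 ± 0.145 in the knockout and 2.32 ± 0.274 in wild type for actin (exact two-sided permutation p = 0.257), and 2.82 ± 0.153 and 2.96 ± 0.0817 in the same order for Gapdh (exact p = 0.143). Both p-values are 0.257 when adjusted over the 2 controls, and the smallest p that 70 arrangements allow is 0.0286.

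The GalNAc transferases outside the polypeptide family held the member with the largest rise. B4galnt2 adds the terminal GalNAc of the Sda blood group antigen, and in mice it is known for a regulatory allele that moves its expression to blood vessel lining. Its chosen probe set read 12.65, 12.61, 12.64 and 12.72 on the 4 knockout-labelled arrays, against 9.30, 7.55, 7.34 and 6.93 on the 4 wild-type-labelled arrays. Every knockout array was above every wild-type array, and the knockout values had an SD of 0.0465 while the wild-type values had an SD of 1.05. The means differed by 4.87, or 29.3-fold, by 5.38 without wild-type array 1, and by 2.62 when the gene's probe sets were averaged. Its 3 other probe sets differed by 3.10, 2.48 and 0.04, the last being dim in both groups at 4.53 ± 0.114 in the knockout and 4.49 ± 0.107 in wild type.

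B3galnt2, which builds the sugar chain of dystroglycan, fell. It read 10.39, 10.33, 10.33 and 10.55 in the knockout, against 11.02, 11.04, 10.60 and 10.95 in wild type, so the groups came close but did not overlap. The difference was -0.50 ± 0.108 (SE, adjusted p = 0.012), and a second probe set fell too. The other 3 members of this role, B3galnt1, B4galnt1 and B4galnt4, were not called, with differences between -0.11 and 0.45.

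Of 18 polypeptide GalNAc transferases, which start mucin-type O-glycans, 1 rose, 2 fell and 15 were not called. Galnt13, known best from neurons, read 7.79, 7.65, 6.89 and 8.03 in the knockout, against 4.71, 4.88, 5.35 and 5.24 in wild type. No arrays overlapped, and the lowest knockout array was still more than 1 log2 unit above the highest wild-type array. The difference was 2.55 ± 0.237 (SE, adjusted p = 0.000129), and its second probe set rose by 1.35 (adjusted p = 0.00119). The wild-type arrays were dim and not shown to be above background, so no fold is given.

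Galnt3, known for protecting the phosphate hormone FGF23 from cleavage, fell. It read 8.52, 7.94, 8.10 and 8.64 in the knockout, against 9.48, 9.44, 8.82 and 9.04 in wild type, a difference of -0.90 ± 0.194 (SE, adjusted p = 0.0119). Galnt11, which modifies Notch and LDL-receptor-family proteins, read 9.62, 9.45, 9.44 and 9.65 in the knockout, against 10.21, 9.95, 10.03 and 10.13 in wild type (difference -0.54, adjusted p = 0.00243). Neither gene's groups overlapped, though for Galnt3 the highest knockout array (8.64) came close to the lowest wild-type array (8.82). The brightest probe set of this role belonged to Galnt1, at 10.95 ± 0.0399 in the knockout and 11.03 ± 0.172 in wild type (adjusted p = 0.603). Galnt12 had the largest difference of any member not called, 0.91 ± 0.278 (SE, adjusted p = 0.0529), with knockout arrays from 10.06 to 10.62 and wild-type arrays from 8.72 to 10.25, the highest of them wild-type array 1.

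The Mgat genes add GlcNAc to N-glycans, and 3 of 10 rose while 1 fell. Mgat1 makes the first such addition, without which complex and hybrid N-glycans are not formed. It read 8.74, 9.09, 8.66 and 8.78 in the knockout, against 9.77, 9.60, 9.66 and 10.15 in wild type. All 4 knockout arrays were below all 4 wild-type arrays, and the difference was -0.98 ± 0.137 (SE), with wild type 1.97-fold above the knockout (adjusted p = 0.00119). Mgat4d, whose protein is known in mouse testis as an inhibitor of the Mgat1 enzyme, rose. It read 9.61, 10.30, 10.13 and 9.62 in the knockout, against 8.51, 7.84, 8.01 and 7.91 in wild type, a difference of 1.85 ± 0.194 (SE), or 3.60-fold (adjusted p = 0.000242). Its second, dimmer probe set differed by 0.20 and was not called.

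Mgat4c, a relative of the Mgat4 branching enzymes, rose with no overlap. It read 8.88, 8.55, 8.45 and 8.80 in the knockout, against 7.76, 7.47, 7.41 and 7.60 in wild type, a difference of 1.11 ± 0.118 (SE), or 2.16-fold (adjusted p = 0.00026). Mgat4a, which adds a branch to complex N-glycans, averaged 9.62 ± 0.224 in the knockout and 8.89 ± 0.379 in wild type (difference 0.73, adjusted p = 0.0248). Its groups overlapped, because wild-type array 1 at 9.43 exceeded the lowest knockout array at 9.29. It kept the call when wild-type array 1 (difference 0.91, adjusted p = 0.00225) or knockout array 2 was left out and lost it when any of the other 6 was, with an adjusted p of up to 0.0665. The other 6 members were not called and differed by -0.11 to 0.25, among them the brightest, Mgat4b, at 10.31 ± 0.143 in the knockout and 10.26 ± 0.163 in wild type (adjusted p = 0.821).

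Of 14 carbohydrate sulfotransferases, 0 rose and 2 fell by limma, beside 8.18% of all genes higher and 12.8% lower. Chst11 had the largest fall of all members. Chst11 sulfates chondroitin, the sugar chain of many matrix proteoglycans. It read 8.53, 8.14, 8.14 and 8.64 in the knockout, against 10.67, 10.68, 10.94 and 10.63 in wild type. The groups lay about 2 log2 units apart, with a difference of -2.37 ± 0.132 (SE), so that wild type was 5.16-fold above the knockout (adjusted p = 9.16e-06). Its second probe set fell by 0.97 on the log2 scale (adjusted p = 3.6e-05).

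Chst8, known for sulfating the N-glycans of the pituitary hormone lutropin, was dim in both groups. It read 5.57, 5.48, 5.63 and 5.65 in the knockout, against 5.997, 5.77, 5.86 and 5.82 in wild type, a difference of -0.28 (adjusted p = 0.0323). The call was lost when any 1 array other than wild-type array 2 was left out, with differences of -0.31 to -0.24 and an adjusted p of up to 0.0823. The brightest of the role, Chst7, stood at 10.49 ± 0.199 in the knockout and 10.68 ± 0.168 in wild type and was not called (adjusted p = 0.343). The 12 members not called differed by -0.31 to 0.11. At an unadjusted p under 0.05, 0 of the 14 were higher and 3 lower.

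The sequences around the annotated starts of 4 of the 5 members that differed by at least 1 log2 unit are shown, because these genes carry the largest differences. Mgat4c, the remaining one, has 4 annotated starts and is not shown. They come from RefSeq on build GRCm38.p6, run from 250 bases before to 50 bases after the start, and are printed 5′ to 3′ on the gene's strand. They are chr11:95914822-95915121 (minus strand) for B4galnt2, chr2:54436137-54436436 (plus strand) for Galnt13, chr8:83348222-83348521 (plus strand) for Mgat4d and chr10:82985247-82985546 (plus strand) for Chst11. Capitals mark matches, on either strand, to any of 5 short motifs, which are the TATA box (TATAAA), the E-box (CANNTG, where N is any base), the Nobox element (TAATTG), the CCAAT box and the GC box (GGGCGG).
B4galnt2: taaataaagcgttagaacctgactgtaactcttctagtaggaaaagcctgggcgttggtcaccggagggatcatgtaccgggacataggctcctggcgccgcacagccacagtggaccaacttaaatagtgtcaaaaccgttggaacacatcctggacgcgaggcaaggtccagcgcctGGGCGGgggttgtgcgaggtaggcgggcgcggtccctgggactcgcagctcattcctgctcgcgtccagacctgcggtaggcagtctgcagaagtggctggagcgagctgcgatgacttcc
Galnt13: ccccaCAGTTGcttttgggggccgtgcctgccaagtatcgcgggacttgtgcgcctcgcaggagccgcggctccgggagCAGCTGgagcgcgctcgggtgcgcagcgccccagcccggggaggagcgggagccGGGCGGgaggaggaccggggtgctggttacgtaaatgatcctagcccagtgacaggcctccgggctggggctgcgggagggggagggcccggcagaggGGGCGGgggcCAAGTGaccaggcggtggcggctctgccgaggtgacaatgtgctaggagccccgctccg
Mgat4d: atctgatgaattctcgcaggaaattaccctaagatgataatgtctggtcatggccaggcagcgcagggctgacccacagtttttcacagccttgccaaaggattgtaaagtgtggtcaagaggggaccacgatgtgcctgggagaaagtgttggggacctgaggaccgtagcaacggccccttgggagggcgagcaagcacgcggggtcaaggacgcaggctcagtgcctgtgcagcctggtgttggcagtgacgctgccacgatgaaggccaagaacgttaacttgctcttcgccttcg
Chst11: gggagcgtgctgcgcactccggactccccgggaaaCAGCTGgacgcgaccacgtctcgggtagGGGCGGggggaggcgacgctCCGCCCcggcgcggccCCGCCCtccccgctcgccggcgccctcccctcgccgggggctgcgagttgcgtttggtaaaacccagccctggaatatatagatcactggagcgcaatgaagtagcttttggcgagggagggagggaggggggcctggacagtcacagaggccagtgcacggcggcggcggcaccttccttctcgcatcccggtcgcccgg

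The motif list was chosen after the array values had been seen. Its first 4 motifs gave no match in the B4galnt2 and Mgat4d windows, and the GC box was added only after that, so its matches are a description and nothing more. The B4galnt2 window holds 1 GC box and none of the others, and the Mgat4d window holds none of the 5. The Galnt13 window holds 3 E-box and 2 GC box matches, and the Chst11 window holds 1 E-box and 3 GC box matches. Among 32851 RefSeq promoter windows of this length, 72.3% hold an E-box, 37.4% a CCAAT box, 35.7% a GC box, 13.6% a TATA box and 8.0% a Nobox element. The windows hold 21 CpG dinucleotides in B4galnt2, 28 in Galnt13, 14 in Mgat4d and 34 in Chst11. Over all windows the median is 7 and the upper quartile 20. The Mgat4c windows, which are not shown, hold 1, 7, 10 and 6, and together they hold matches to each of the 5 motifs.

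**Figure D2:**
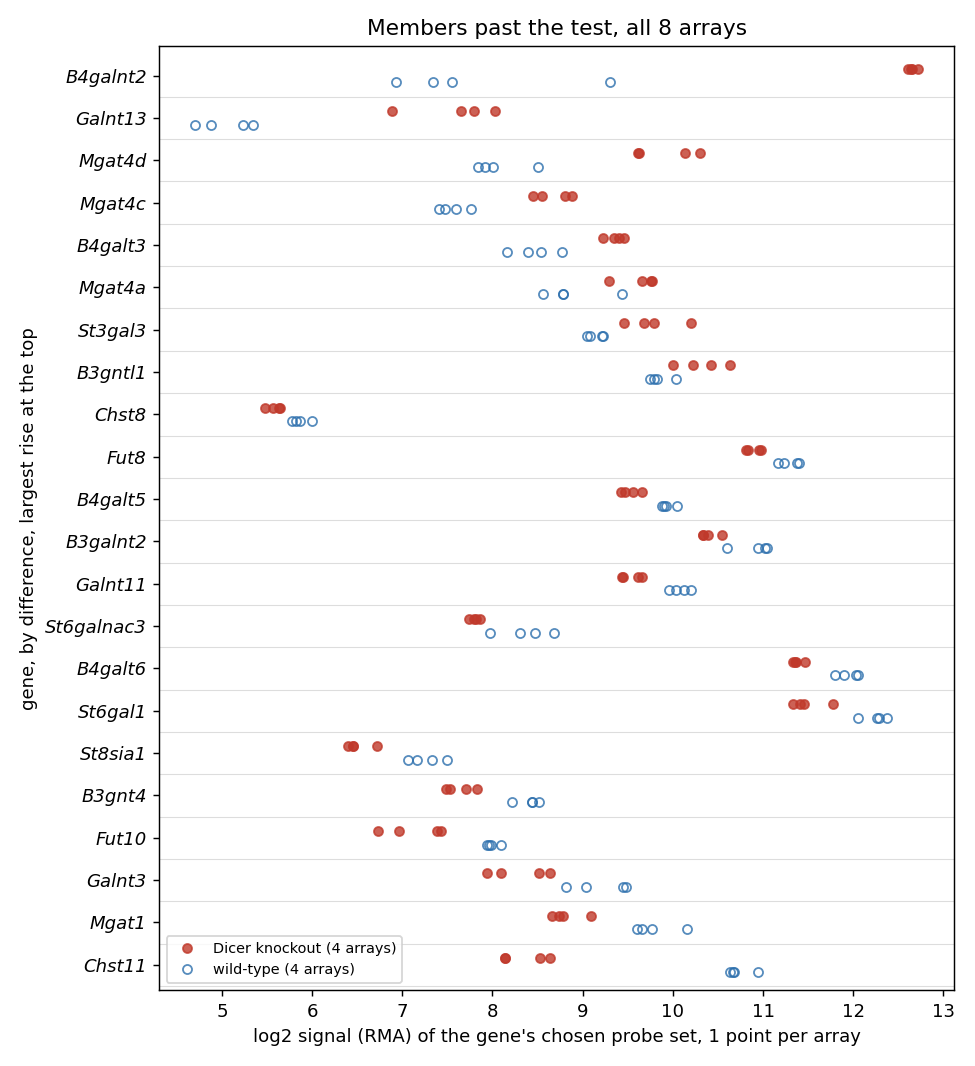
Log2 signal of each of the 22 members past the threshold, B4galnt2 included, on every array (horizontal axis), with Dicer knockout arrays as filled and wild-type arrays as open points, ordered from the largest rise (B4galnt2) to the largest fall (Chst11). The groups are separate for 20 genes and overlap for Mgat4a and B3gntl1, and the 4 wild-type points of B4galnt2 run from 6.93 to 9.30. The genes shown were picked by their difference on these same arrays, so the separation is largely built in and adds no support.

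Galactosyltransferases extend chains with galactose, and 1 of 12 rose and 2 fell. B4galt3, which adds galactose to GlcNAc ends, read 9.46, 9.23, 9.35 and 9.40 in the knockout, against 8.77, 8.54, 8.40 and 8.16 in wild type. The groups did not overlap, and the difference was 0.89 ± 0.124 (SE), or 1.85-fold (adjusted p = 0.00118). B4galt5 and B4galt6 both make lactosylceramide, the base of most complex glycolipids. B4galt5 read 9.65, 9.56, 9.43 and 9.46 in the knockout, against 10.04, 9.88, 9.90 and 9.93 in wild type (difference -0.41, adjusted p = 0.00585), and its second probe set fell as well.

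B4galt6 was the only member whose probe sets were called in opposite directions, which also held for 115 of the 9010 genes with more than 1 probe set. Its brightest probe set, chosen by the rule, read 11.47, 11.36, 11.33 and 11.36 in the knockout, against 11.90, 12.05, 11.79 and 12.03 in wild type, a fall of 0.56 (difference -0.56 ± 0.0799 SE, adjusted p = 0.00131). The next brightest averaged 11.27 ± 0.141 in the knockout and 10.18 ± 0.102 in wild type, a rise of 1.09 (adjusted p = 6.86e-05). Another averaged 10.96 ± 0.146 in the knockout and 10.27 ± 0.105 in wild type, a rise of 0.69 (adjusted p = 0.000943). The dimmest differed by 0.26 and was not called. None of these pairs of groups overlapped among the 3 called probe sets. Averaged over its probe sets, the gene was 0.37 higher in the knockout (adjusted p = 0.00616), so no single direction holds for B4galt6.

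**Figure D3:**
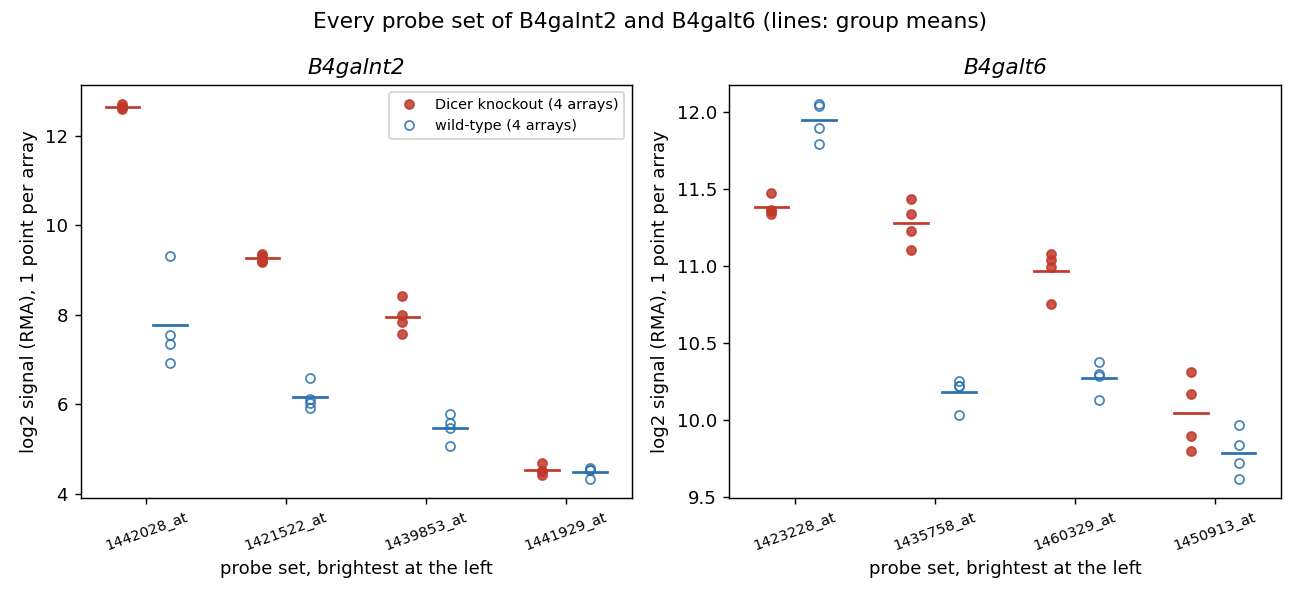
Log2 signal on each array (vertical axis) for every probe set of B4galnt2 (left) and B4galt6 (right), with Dicer knockout as filled and wild-type as open points and lines at the group means. The 3 brighter B4galnt2 probe sets are higher in the knockout and the dimmest is level, while the brightest B4galt6 probe set is lower and the next 2 are higher.

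The other 9 galactosyltransferases were not called, with differences from -0.76 to 0.26. B4galt4 had the lowest, at 9.73 ± 0.289 in the knockout and 10.49 ± 0.87 in wild type, where 1 array reached 11.53 and another was at 9.40 (adjusted p = 0.211). B3galt4 came closest to the threshold (difference 0.26, adjusted p = 0.0524), and its groups did not overlap, with 7.48 to 7.71 in the knockout and 7.28 to 7.46 in wild type.

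The B3gnt genes, some of which place the GlcNAc of repeated lactosamine chains, had 1 rise and 1 fall among 9. B3gnt4 read 7.83, 7.70, 7.48 and 7.53 in the knockout, against 8.44, 8.43, 8.22 and 8.51 in wild type, with no overlap (difference -0.77, adjusted p = 0.000857). B3gntl1, a gene named for its likeness to this family, averaged 10.32 ± 0.271 in the knockout and 9.85 ± 0.128 in wild type (difference 0.48, adjusted p = 0.0373). Its groups overlapped, and the call was kept only when wild-type array 4 or knockout array 4 was left out, with an adjusted p of up to 0.0914 otherwise. It was also lost with its probe sets averaged (0.24, adjusted p = 0.0507) and under median scaling (0.45, adjusted p = 0.0555). B3gnt2, the main enzyme for lactosamine repeats and the brightest of the role, averaged 10.70 ± 0.23 in the knockout and 11.10 ± 0.173 in wild type and was not called (adjusted p = 0.0633).

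Sialyltransferases cap chains with sialic acid, and 1 of 20 rose and 3 fell. St6gal1, which caps N-glycans and was the brightest of the role, read 11.77, 11.33, 11.46 and 11.41 in the knockout, against 12.28, 12.38, 12.05 and 12.26 in wild type. The groups did not overlap, and the difference was -0.75 ± 0.111 (SE, adjusted p = 0.00165). St8sia1, which makes the ganglioside GD3, read 6.46, 6.46, 6.395 and 6.72 in the knockout, against 7.06, 7.49, 7.16 and 7.33 in wild type (difference -0.75, adjusted p = 0.00167). St6galnac3, which adds sialic acid to GalNAc already carrying a sialylated galactose, read 7.74, 7.79, 7.82 and 7.86 in the knockout, against 7.98, 8.31, 8.47 and 8.68 in wild type (difference -0.56, adjusted p = 0.0192). All 3 had knockout arrays below every wild-type array. The St6galnac3 call was lost without wild-type array 3 (difference -0.52, adjusted p = 0.0505) and without knockout array 1 (-0.54, adjusted p = 0.0508), and with its probe sets averaged (-0.27, adjusted p = 0.113).

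St3gal3, which caps galactose ends, rose. It read 9.46, 10.20, 9.79 and 9.68 in the knockout, against 9.21, 9.08, 9.05 and 9.22 in wild type, a difference of 0.64 ± 0.141 (SE, adjusted p = 0.013). The knockout arrays were the more spread, and none overlapped the wild type. The call was lost with its probe sets averaged (0.55, adjusted p = 0.0601). The 16 sialyltransferases not called differed by -0.62 to 0.29. St8sia4, which makes polysialic acid, was among them although its groups did not overlap.

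Fucosyltransferases had 0 rises and 2 falls among 9 members by limma, beside 8.18% of all genes higher and 12.8% lower. Fut8, which places the core fucose of N-glycans and was the brightest of the role, read 10.96, 10.98, 10.83 and 10.82 in the knockout, against 11.17, 11.37, 11.23 and 11.40 in wild type (difference -0.40 ± 0.0814 SE, adjusted p = 0.00907). With its probe sets averaged, 2 of which were dimmer and not called, the difference was -0.13 and the call was lost (adjusted p = 0.193). Fut10 read 6.96, 7.43, 6.74 and 7.39 in the knockout, against 7.99, 7.96, 7.94 and 8.10 in wild type (difference -0.87 ± 0.148 SE, adjusted p = 0.00355), and a second probe set fell. Neither gene's groups overlapped. At an unadjusted p under 0.05, 1 of the 9 was higher and 3 lower. The other 7, which include the pseudogene Fut4-ps1, differed by -0.35 to 0.26 and were not called.

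**Figure D4:**
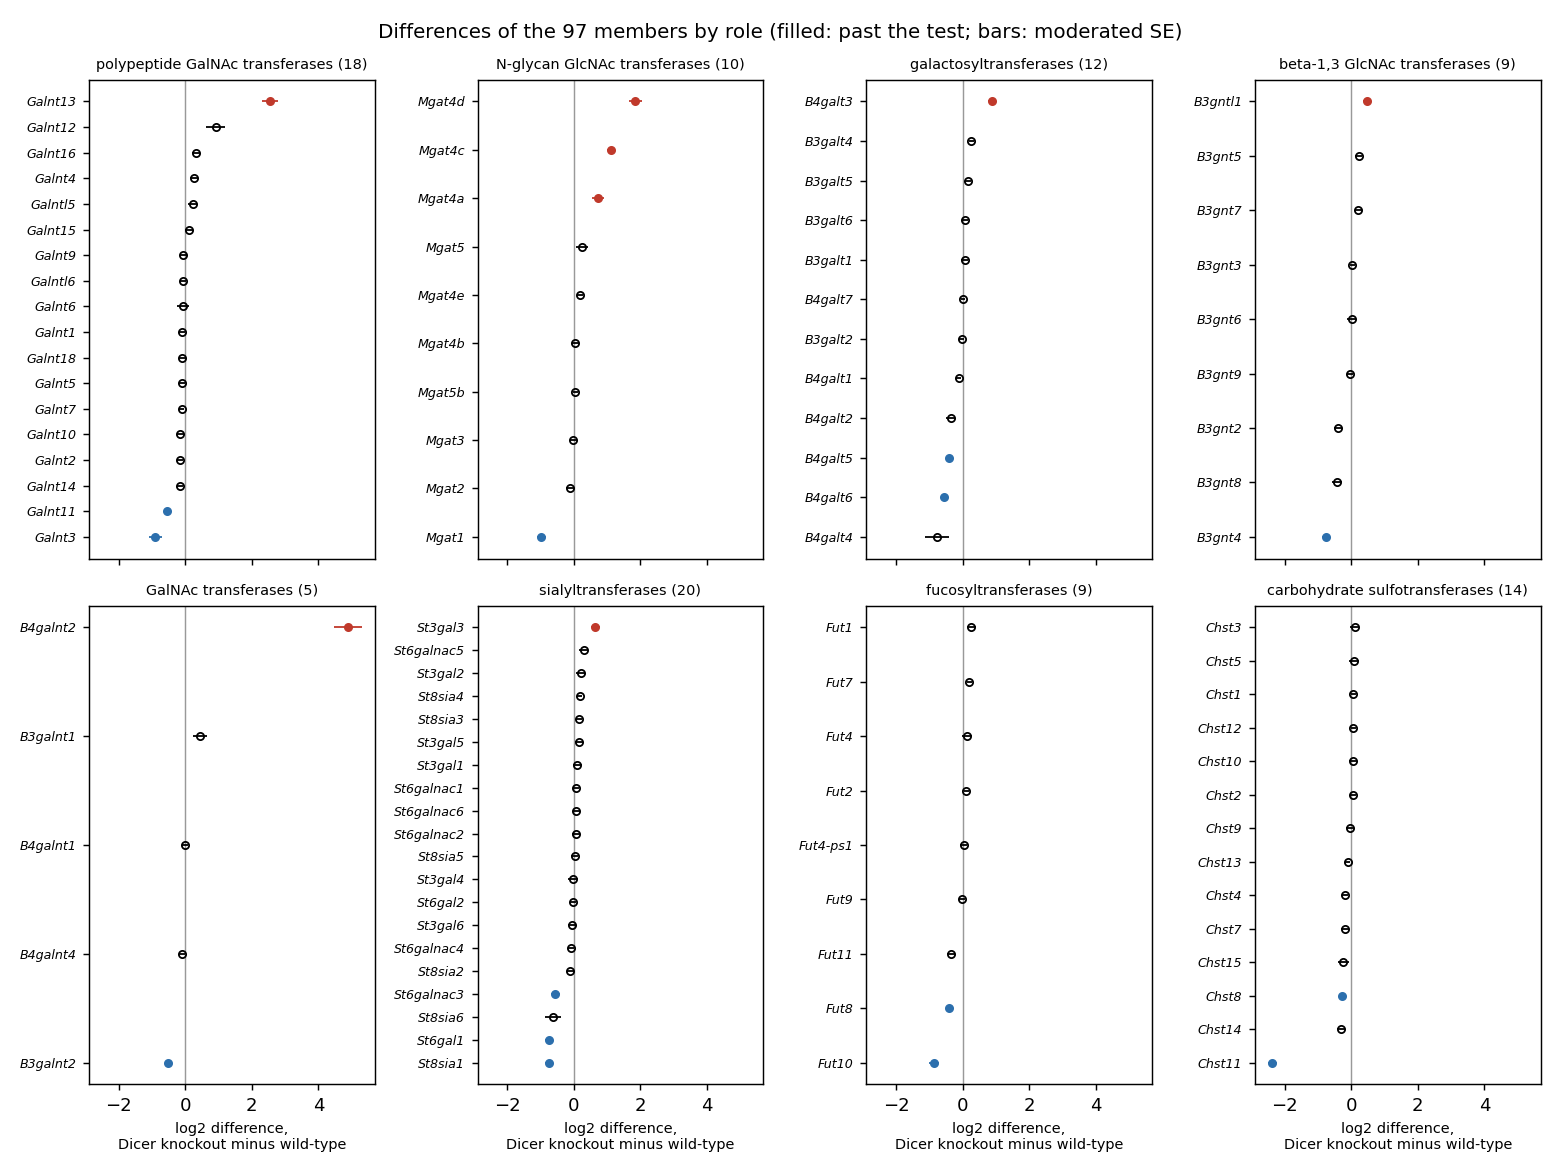
Log2 difference, Dicer knockout minus wild-type (horizontal axis), for all 97 members in 8 panels by role, with the moderated SE as bars and filled points past the test. Most points lie close to 0. The N-acetylglucosamine branching panel has 3 rises and 1 fall, and the sulfotransferase and fucosyltransferase panels have 2 falls each and 0 rises. Counts per panel are small, with 5 to 20 members in each, and of all genes 8.18% were higher and 12.8% lower.

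Over all 97 members, 33 (34.02%) had an unadjusted limma p under 0.05, against 34.7% of all genes. For 18 of the 22 called members there was more than 1 probe set: another was called in the same direction for 7, in the opposite direction for B4galt6, and no other was called for 10. Those 10 were B3gntl1, B4galt3, Fut8, Galnt11, Mgat4a, Mgat4d, St3gal3, St6gal1, St6galnac3 and St8sia1. The matching shares over all called genes were not computed. Averaging a gene's probe sets before the fit ended the calls of Fut8, St6galnac3, St3gal3 and B3gntl1 and turned B4galt6, leaving 17 of the 22 calls. Besides B4galnt2, which went from 4.87 to 2.62, it moved 8 others that stayed called by more than 1.5 times on the log2 scale. These were Mgat4d (to 1.03), B4galt3 (to 0.47), Mgat4a (to 0.32), Galnt3 (to -0.57), B3galnt2 (to -0.32), Galnt11 (to -0.24), St6gal1 (to -0.46) and St8sia1 (to -0.31). Within mice sharing a first number in their sample title, whose meaning the labels do not give, 21 of the 22 called members had the same sign of difference between the 2 animals numbered 24 and 22 of 22 between the 2 numbered 27. The exception was Mgat4a, for which the animals numbered 24 differed by -0.15. The arrays of these animals were part of the fit that made the calls. For the 20 called members whose groups did not overlap, the sign was fixed in advance. These counts therefore add no support to the calls.

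Genes that supply or precede these enzymes are given from 4 lists drawn by role. Their counts stand beside 8.18% of all genes higher and 12.8% lower. Of 27 measured genes for sugar and sulfate donors, 5 rose and 5 fell, with a median difference of -0.09. Gne, the rate-limiting enzyme of sialic acid synthesis, averaged 10.05 ± 0.186 in the knockout and 8.51 ± 0.319 in wild type (2.90-fold, adjusted p = 0.000219), and Slc35d2, a Golgi sugar nucleotide transporter, rose by 0.92 (adjusted p = 6.23e-05). Nanp, which takes the phosphate off sialic acid phosphate, fell by 1.01 on the log2 scale (adjusted p = 0.00126), and Papss2, which makes PAPS, fell by 0.65 (adjusted p = 0.00739). Gne and Nanp, both of sialic acid synthesis, thus moved in opposite directions.

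Of 36 other glycosyltransferases measured, 3 rose and 6 fell, with a median difference of 0.02. A4galt, which makes the glycolipid Gb3, averaged 7.95 ± 0.26 in the knockout and 6.44 ± 0.19 in wild type (difference 1.51, adjusted p = 0.00013), and B3glct, which adds glucose to O-fucose, rose by 0.60 (adjusted p = 0.011). Gcnt2, the I-branching enzyme, averaged 6.42 ± 0.109 in the knockout and 8.37 ± 0.33 in wild type (difference -1.95, adjusted p = 4.59e-05), and Extl3, which starts heparan sulfate chains, fell by 0.83 on the log2 scale (adjusted p = 0.000119).

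Among 19 other sulfotransferases and epimerases, 1 rose and 1 fell, with a median difference of 0.09. Hs3st3a1, a heparan sulfate sulfotransferase, averaged 8.86 ± 0.074 in the knockout and 6.25 ± 0.201 in wild type (difference 2.62, adjusted p = 2.3e-06), and Ust, which sulfates uronic acid, differed by -0.38 (adjusted p = 0.0333). In the assembly, transfer and trimming of the N-glycan core, 3 of 32 measured genes rose and 7 fell, with a median difference of -0.12. Rpn1, a subunit of the oligosaccharyltransferase that attaches N-glycans, averaged 10.998 ± 0.131 in the knockout and 12.03 ± 0.0627 in wild type (difference -1.03, adjusted p = 5.64e-05). Alg11, a mannosyltransferase of the lipid-linked precursor, fell by 1.24 on the log2 scale (adjusted p = 0.000326), while Alg14 rose by 0.95 (adjusted p = 0.00225) and the trimming enzyme Man2a2 by 0.91 (adjusted p = 0.019). Over all 4 lists, which held 27, 36, 19 and 32 measured genes, 31 genes were called, and the share of all genes called was 21.0%.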

How the data were processed

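Values were the deposited log2 signals per probe set of 8 arrays, made by the authors with RMA and handled with Partek, per the submitters' processing notes, with no version or genome build given in the sources used here. Low signals are compressed by RMA, and 2 rounds of amplification of RNA from 20 oocytes favour 3′ ends. Groups followed the genotype label, 4 arrays each, and this number limits precision. All columns belonged to these samples, and 0 pairs of arrays were identical.

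Of 45037 probe sets, after 64 controls were left out, 34945 had 1 symbol in the platform annotation, 932 several and 9160 none. The 97 members were all found in the RefSeq table (GRCm38.p6) under the same symbol, and 73 have a promoter sequence there. For 3 members the chosen probe set led the next by under 0.1.

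The model was fitted with limma (version 3.58.1, R 4.3.3, default eBayes, genotype as the only term) to all 45037 probe sets with Benjamini-Hochberg adjustment; the script was tested on simulated data. Alternatives were other variance models, array weights, 3 scalings, filters on dim or suffixed probe sets, probe sets averaged per gene, the title number as a random or fixed block, and leaving out each array. All 22 members past the threshold are named, as are the brightest of each role and, in each related list, the 2 with the lowest p in each direction. Values on all 8 arrays are given for called members that differ by at least 1 or whose groups do not overlap. Galnt12, B4galt4, B3galt4, St8sia4 and Chst14 were named after their values were seen. The members, lists and rules were chosen with earlier results of these data known.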

Additional observations from a re-analysis of the deposited data

Results flagged for a closer look

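Chst11 in wild type had 1 array far from the other 3. Wild-type array 3 read 10.94, while the other 3 lay between 10.63 and 10.68. The gap to the nearest array was 0.859 of the group's whole range, above the limit of Dixon's test for 4 values. It was 1 of 56 sets of 4 arrays looked at, and chance gives about 2.8. All wild-type arrays were still about 2 log2 units above the knockout arrays, and the difference lay between -2.46 and -2.29 whichever array was left out.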

How the results depend on the processing

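Under 19 alternatives the counts moved most with the first title number as a fixed block, which gave 5 members higher, 5 lower and 12 called in the related lists, against 8, 14 and 31. The shares of all genes dropped too in that fit, to 2.87% higher and 3.8% lower, against 8.18% and 12.8%. Only numbers 24 and 27 hold both genotypes, so this fit compares few animals; beside B4galnt2, which is counted but described without a test, those still called were Galnt13, Mgat4d, Mgat4c, St3gal3, Chst11, Galnt3, B3gnt4, St8sia1 and St6gal1. As a random block the number had a correlation of -0.078 and kept all 22 calls. The other alternatives gave 6 to 10 members higher, 12 to 15 lower and 23 to 32 called in the lists, and the median over members stayed between -0.03 and 0.02. Of all genes tested in them, 6.3% to 11.5% were higher and 9.7% to 19% lower. Where 1 array was left out, these shares were 6.3% to 7.68% and 9.7% to 11.5%. B4galt6 turned to 0.37 (adjusted p = 0.00616) as the mean of its probe sets, which by construction weighs probe sets that moved the other way. The same averaging, which by construction weighs dimmer probe sets too, left 17 of the 22 calls and ended those of Fut8 (-0.13), St6galnac3 (-0.27), St3gal3 (0.55) and B3gntl1 (0.24). Leaving out 1 array gave 6 to 8 higher and 12 to 15 lower, and 18 of 22 members stayed called throughout, all but B3gntl1, Chst8, Mgat4a and St6galnac3. It added calls for Galnt12 (1.18) and Chst14 (-0.42) without wild-type array 1, for B4galt4 (-1.12) without wild-type array 2, for B3gnt2 (-0.49), B3gnt8 (-0.54) and Fut7 (0.26) without wild-type array 3, for B4galt2 (-0.44) without knockout array 2, for B3gnt2 (-0.48) without knockout array 3 and for B3galt4 (0.31) without knockout array 4, with adjusted p from 0.00679 to 0.0499. No detection calls were used, so dim members have no stated background.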

Other observations

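Among members not called, Galnt6 and Fut4 each had another probe set that was. Galnt6, at 10.51 ± 0.383 in the knockout and 10.58 ± 0.205 in wild type in its chosen probe set, had a dimmer one that differed by 0.48 (adjusted p = 0.014). Fut4, dim throughout, had one that differed by 0.40 (adjusted p = 0.0361).

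In the gene order of the RefSeq table, 7 pairs of members lie within 5 genes of each other. Galntl5 and Galnt11 are next to each other, with differences of 0.22 and -0.54, the second of them past the test. St6galnac5 and St6galnac3 are also neighbours, at 0.29 and -0.56, again with only the second past the test. B4galt2 and St3gal3 have 4 genes between them and differed by -0.36 and 0.64, with St3gal3 past the test. In no pair did both members pass, and whether the 2 members of a pair differ from each other was not tested.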
